A study of Homo sapiens with 9 samples.

Results

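The enzymes described here were 10 genes of fatty acid synthesis, elongation, desaturation and activation (ACLY, ACSS2, ACACA, FASN, ELOVL6, ELOVL5, SCD, FADS2, FADS1 and ACSL3), found by symbol among the 60606 genes of the deposited table. All 10 were present and all 10 passed the filter of a mean of more than 1 TPM, which 22909 genes passed. TPM is the share of a gene among 1000000 transcripts after allowing for its length, so levels can be compared between genes. RNA was sequenced from 3 cell lines with 3 libraries each. U87 is an established human glioblastoma line, here the wild-type parent grown with fetal bovine serum. GSCs are radioresistant stem cells derived from U87, repeatedly irradiated and kept serum-free in DMEM/F12 with B27, EGF and bFGF. Diff cells are radioresistant cells that were differentiated from the GSCs with serum, taken from clonal communities and then also grown with serum. All 3 lines thus share the U87 background. GSCs differ from U87 in derivation as stem cells, in irradiation and in medium, and Diff cells differ from GSCs in medium and in the choice of clones. Diff cells differ from U87 in irradiation, in passage through stem cell culture and in the choice of clones. In each of these comparisons the factors cannot be told apart. The labels do not say whether libraries came from separate cultures, so p-values measure only the spread between these libraries.

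Cells make fatty acids from cytosolic acetyl-CoA, which ATP citrate lyase (ACLY) releases from citrate and acetyl-CoA synthetase (ACSS2) makes from acetate. Acetyl-CoA carboxylase (ACACA) turns it into malonyl-CoA, fatty acid synthase (FASN) builds palmitate, and elongases and desaturases lengthen the chain and add double bonds. Many of these genes are targets of the SREBP transcription factors, which are held back by sterols through the INSIG proteins, and of the liver X receptors, and they are widely studied in glioblastoma, where tumour cells draw on both made and imported lipids.

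Upstream sequence is shown for SCD and ACSS2, the pair of members that differed by more than 1 on the log2 scale both between GSCs and U87 and between Diff cells and GSCs. The sequences are from RefSeq (GRCh38.p14), run 5′ to 3′ on the plus strand and stop before the first exon base of GENCODE 29. Capitals mark the NF-Y box (letters CCAAT, or ATTGG on the other strand). The SCD stretch of 141 bases, chr10:100346983-100347123, ends directly before the annotated gene. The ACSS2 stretch of 203 bases, chr20:34874739-34874941, lies before a RefSeq start inside the annotated gene, between exons of longer transcripts.
SCD: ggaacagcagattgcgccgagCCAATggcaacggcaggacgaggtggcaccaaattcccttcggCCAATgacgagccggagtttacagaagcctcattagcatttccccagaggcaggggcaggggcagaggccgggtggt
ACSS2: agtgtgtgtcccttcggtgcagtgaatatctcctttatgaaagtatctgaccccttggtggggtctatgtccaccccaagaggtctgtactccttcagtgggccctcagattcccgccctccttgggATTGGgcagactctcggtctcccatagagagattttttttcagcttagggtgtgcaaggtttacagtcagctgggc
The SCD stretch held 2 NF-Y boxes and the ACSS2 stretch 1. ACSS2 has another RefSeq start, not shown, whose 250 bases (chr20:34876362-34876611) held 0 NF-Y boxes and 3 GC boxes. Over the 250 bases before each start, 9 members matched a RefSeq entry (14 entries) and FASN did not. An NF-Y box on either strand was present in 8 of these 14 entries and in 32.0% of all 35116 entries, and a GC box (GGGCGG) in 11 of the 14 and in 42.6% of all. Counted by gene, with any entry enough, 6 of the 9 members and 37.0% of 27305 genes held an NF-Y box, and 8 members and 46.2% of genes a GC box. Some entries of 1 gene overlap. The E-box CACGTG was found in 1 member entry, that of ELOVL5, and in 6.34% of all entries. The sterol regulatory element in the form TCACNCCAC was found in 0 member entries and in 0.883% of all entries, which says only that these letters are not in these windows. None of these motifs contains another, and a match is a description, not a site.

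By library, mitochondrial genes took 25.9 to 31.8% of all TPM, and RN7SL1, a small RNA of the signal recognition particle, 5.73 to 9.79%. TPM keeps no read depth, so counting error is unknown and only the spread between libraries measures precision. Stem cell markers only partly followed the labels: in the 3 GSC libraries PROM1, which encodes CD133, was at 0.379 to 0.596 TPM and SOX2 at 0.809 to 0.994 TPM, both higher than in U87 but low, FABP7 was at 4.38 to 5.82 TPM, while NES, the most abundant of the 8, was lower in GSCs (21.7 to 23.3 TPM) than in U87 (31.1 to 35.5 TPM) and lowest in Diff cells (12.7 to 14.6 TPM). POU3F2 went the other way, from 0.154 to 0.207 TPM in U87 to 2.81 to 3.68 TPM in GSCs and 5.06 to 7.76 TPM in Diff cells. OLIG2 (6.7 to 8.3 and 7.7 to 10.6 TPM) and SALL2 (1.74 to 2.61 and 1.32 to 1.87 TPM) overlapped between U87 and GSCs, and MSI1 did not exceed 0.217 TPM. The sum of the 8, of which NES was the largest part, in GSCs (40.1 to 44.6 TPM) overlapped with that in U87 (41.1 to 45.9 TPM), and that in Diff cells (28.1 to 29.6 TPM) was below both. The sum of 6 astroglial markers, nearly all of it VIM, was 1630 to 1667 TPM in U87, 1097 to 1314 TPM in GSCs and 594 to 663 TPM in Diff cells, and that of 6 neuronal markers 10.8 to 14.5, 13.5 to 14.0 and 27.1 to 28.1 TPM. The neuronal sum followed MAP2, at 6.9 to 9.2 TPM in U87, 7.6 to 9.1 TPM in GSCs and 20.6 to 22.5 TPM in Diff cells. TUBB3 was at 3.1 to 4.4, 3.9 to 5.1 and 4.6 to 5.8 TPM, and the other neuronal markers were below 1 TPM in every library. Adipocytes are rich in the enzymes described here, and of 4 adipocyte markers ADIPOQ was listed at 0 in all 9 libraries and the sum did not exceed 0.90 TPM in any. Of 3 endothelial markers, VWF and PECAM1 had a mean over 1 TPM, CDH5 stayed at or below 0.465 TPM, and the sum was higher in GSCs (16.4 to 18.9 TPM) than in U87 (2.66 to 4.41 TPM) or Diff cells (4.13 to 5.55 TPM). The sum of 5 markers of fibroblasts and pericytes was lower in GSCs (27.8 to 28.0 TPM) than in U87 (72.7 to 85.0 TPM) or Diff cells (55.4 to 60.5 TPM). Within it PDGFRB was lower in GSCs (11.01 to 12.9 TPM) and Diff cells (11.4 to 12.1 TPM) than in U87 (52.4 to 59.0 TPM), and LUM was higher in Diff cells (22.0 to 26.9 TPM) than in U87 (0.756 to 1.80 TPM) or GSCs (0.539 to 1.06 TPM). The part of these markers in the results was not tested. In such bulk samples a lower value can mean fewer cells of a kind or less RNA per cell, and these cannot be told apart.

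The 10 enzymes together took 2224 to 2697 TPM in U87, 5743 to 6116 TPM in GSCs and 2965 to 3548 TPM in Diff cells. Every GSC library was therefore above every Diff library, and every Diff library above every U87 library. In GSCs against U87, 4 of the 10 passed both limits used here (an adjusted p under 0.05 in limma and an absolute log2 fold change over 1), all of them higher (FASN, ACSS2, SCD and FADS1), where 17.1% of all tested genes passed in either direction, 9.52% as higher and 7.53% as lower. By adjusted p alone 7 were higher and 2 lower, against backgrounds of 25.3% and 23.3%. In Diff cells against U87, 0 of the 10 passed both limits in limma (background 12.3% in either direction, 5.92% higher and 6.36% lower), while by adjusted p alone 5 were higher and 1 lower (backgrounds 18.9% and 20.5%). In Diff cells against GSCs 2 of the 10, ACSS2 and SCD, passed both limits as lower (background 8.01% in either direction, 2.66% higher and 5.36% lower), and by adjusted p alone 7 were lower and 0 higher (backgrounds 19.8% and 15.0%). All libraries of GSCs lay above all of U87 for 8 of the 10 and below for 2, where 29.3% and 26.6% of tested genes were so separated. For Diff cells against U87 these counts were 5 and 3 (backgrounds 26.2% and 29.0%), and for Diff cells against GSCs 1 and 7 (backgrounds 19.8% and 27.0%). The median log2 fold change of the 10 was 0.68, 0.18 and -0.54 in the 3 comparisons, beside 0.017, -0.036 and -0.056 over all tested genes. Each cell line enters a pair of these comparisons, so they are not independent. Fold changes are on the log2(TPM + 1) scale, which understates changes of low genes, here mainly FADS2.

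In the acetyl-CoA step the less abundant transcript showed the larger fold change. ACSS2, which uses acetate, was at 34.8, 32.3 and 30.9 TPM in the U87 libraries, at 89.9, 91.3 and 92.8 TPM in GSCs and at 35.5, 32.8 and 33.5 TPM in Diff cells. The GSC libraries were far above the other 6, and those of U87 and Diff cells overlapped. ACSS2 rose in GSCs against U87 by a log2 fold change of 1.46 ± 0.0584 (SE; 2.80-fold in mean TPM; limma, adjusted p = 2.31e-07) and fell in Diff cells relative to GSCs (-1.40 ± 0.0584, adjusted p = 1.46e-06). Between Diff cells and U87 the difference was 0.054, with a 95% interval from -0.079 to 0.19 (limma, adjusted p = 0.508). ACLY, the citrate-cleaving enzyme, had the highest level of the 10 after SCD in every library, with 393, 353 and 398 TPM in U87, 438, 520.5 and 479.8 TPM in GSCs and 384, 417 and 404 TPM in Diff cells. The GSC libraries of ACLY were the highest but by a small margin, and U87 and Diff cells overlapped. ACLY rose in GSCs by 0.33 ± 0.0757 (limma, adjusted p = 0.00646). Its difference of -0.25 in Diff cells against GSCs (adjusted p = 0.0305) kept its side of the p limit in only 7 of 18 alternative settings, with adjusted p from 0.0143 to 0.105 over them, and was lost on leaving out GSC replicate 2 (0.0831) or 3 (0.0563) or Diff replicate 1 (0.097), 2 (0.0523) or 3 (0.0759). Between Diff cells and U87 ACLY differed by 0.076 (95% interval -0.10 to 0.25; adjusted p = 0.474).

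The enzymes of the malonyl-CoA and palmitate steps did not move alike. FASN, which carries out every reaction of palmitate synthesis on 1 protein, was at 164, 178 and 158 TPM in U87, 418, 497 and 382 TPM in GSCs and 265, 275 and 298 TPM in Diff cells. No library of one line overlapped with those of another, and the GSC libraries spread most. FASN rose in GSCs against U87 by 1.36 ± 0.0964 (2.59-fold in mean TPM; limma, adjusted p = 6.03e-06), and in Diff cells against U87 by 0.74 ± 0.0964 (adjusted p = 0.000336). It fell in Diff cells relative to GSCs (-0.62 ± 0.0964, limma, adjusted p = 0.00137). ACACA, which makes the malonyl-CoA that FASN consumes and is usually regarded as the committed step, was at 44.3, 45.4 and 40.5 TPM in U87, 45.8, 45.7 and 49.7 TPM in GSCs and 51.6, 51.0 and 55.5 TPM in Diff cells. All 9 libraries lay within a range of 1.37-fold, with Diff cells at the top. ACACA differed by 0.11 between GSCs and U87 (95% interval -0.033 to 0.26; limma, adjusted p = 0.18) and rose in Diff cells against U87 by 0.28 ± 0.0647 (adjusted p = 0.00909). Against GSCs, Diff cells differed by 0.16 (adjusted p = 0.0881), a difference that passed the p limit without GSC replicate 3 (0.20, adjusted p = 0.0398) and under the 3 other scalings tried (0.17 to 0.22).

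The elongases changed in opposite directions. ELOVL5, which lengthens polyunsaturated chains, was at 80.2, 81.3 and 75.2 TPM in U87, 144, 129.6 and 158 TPM in GSCs and 109, 96.6 and 108 TPM in Diff cells. The lines did not overlap. It rose in GSCs by 0.85 ± 0.08 (limma, adjusted p = 3.38e-05) and in Diff cells by 0.40 ± 0.08 (adjusted p = 0.00422) against U87, and Diff cells were below GSCs by -0.46 (adjusted p = 0.00258). ELOVL6, which takes palmitate on to stearate, was at 25.3, 23.2 and 23.8 TPM in U87, 15.7, 15.7 and 19.6 TPM in GSCs and 19.0, 18.0 and 21.8 TPM in Diff cells. U87 was above both other lines, which overlapped. ELOVL6 fell in GSCs against U87 (-0.49 ± 0.104; limma, adjusted p = 0.00434). In Diff cells its difference from U87 was -0.29 (95% interval -0.52 to -0.049; adjusted p = 0.058), close to the limit, and it passed in 7 of 18 alternatives, among them those without GSC replicate 3 (adjusted p = 0.0181) and without Diff replicate 3 (0.0386). Against GSCs it was 0.20 (adjusted p = 0.172), and without GSC replicate 3, the highest GSC library, 0.30 (adjusted p = 0.0279).

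Among the desaturases, SCD was the most abundant of the 10 enzymes in every library. SCD places the double bond that turns stearate into oleate, and its mean over all libraries ranked 24th of the 22909 tested genes. It was at 1512, 1858 and 1390.4 TPM in U87, 4472, 4236 and 4688 TPM in GSCs and 1956, 2120.0 and 2479 TPM in Diff cells. The GSC libraries stood well apart, while the lowest Diff library was only just above the highest U87 library. SCD rose in GSCs against U87 by 1.50 ± 0.124 (2.81-fold in mean TPM; limma, adjusted p = 1.49e-05) and fell in Diff cells relative to GSCs (-1.04 ± 0.124, adjusted p = 0.000334). The latter value is near the fold limit of 1 and was -0.97 after rescaling without RN7SL1 and mitochondrial genes, -0.98 under median-ratio scaling and -0.96 without Diff replicate 1. In Diff cells against U87 SCD was higher by 0.47 ± 0.124 (adjusted p = 0.0162), and this did not pass without U87 replicate 1 (adjusted p = 0.0567), U87 replicate 3 (0.0581) or Diff replicate 3 (0.0586), or under quantile normalization (0.0887). SCDP1, a processed pseudogene of SCD whose reads could be mistaken for those of SCD, was at 0 to 0.605 TPM.

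FADS1 and FADS2, neighbouring genes on chromosome 11 whose enzymes act one after the other on polyunsaturated fatty acids, went in opposite directions. FADS1 was at 68.8, 77.3 and 65.1 TPM in U87, 161, 156 and 176 TPM in GSCs and 106, 102 and 111 TPM in Diff cells, with no overlap between lines. It rose in GSCs by 1.21 ± 0.0748 (2.33-fold in mean TPM; limma, adjusted p = 2.69e-06) and in Diff cells by 0.59 ± 0.0748 (adjusted p = 0.00029) against U87, and fell in Diff cells relative to GSCs (-0.62, adjusted p = 0.000353). FADS2, which acts before FADS1, was the least abundant of the 10, at 7.31, 7.86 and 6.61 TPM in U87, 4.05, 4.0 and 3.55 TPM in GSCs and 3.78, 3.22 and 3.67 TPM in Diff cells. U87 was above all other libraries, and GSCs and Diff cells overlapped. FADS2 fell in GSCs (-0.76 ± 0.11; limma, adjusted p = 0.000467) and in Diff cells (-0.86 ± 0.11; adjusted p = 0.000306) against U87, and between Diff cells and GSCs differed by -0.10 (95% interval -0.35 to 0.15; adjusted p = 0.547). In GENCODE 29 (GRCh38) FADS2 spans chr11:61792980-61867354 on the plus strand and FADS1 chr11:61799625-61829318 on the minus strand. FADS1 thus lies within the span of FADS2, and 4.4% of FADS2 exon bases and 4.8% of FADS1 exon bases were shared across strands, and whether counting used the strand is not given in the sources used here.

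ACSL3, which couples fatty acids to CoA and is found on the endoplasmic reticulum and lipid droplets, was at 37.2, 41.6 and 35.3 TPM in U87, 50.9, 47.8 and 66.5 TPM in GSCs and 34.9, 32.0 and 34.5 TPM in Diff cells. GSC replicate 3 stood above the other GSC libraries, and all Diff libraries were below all of U87. ACSL3 rose in GSCs against U87 by 0.51 ± 0.119 (limma, adjusted p = 0.00683), which was 0.37 without GSC replicate 3. It fell in Diff cells relative to GSCs (-0.67 ± 0.119, adjusted p = 0.00265), and between Diff cells and U87 it differed by -0.16 (95% interval -0.44 to 0.11; limma, adjusted p = 0.318).

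**Figure D1:**
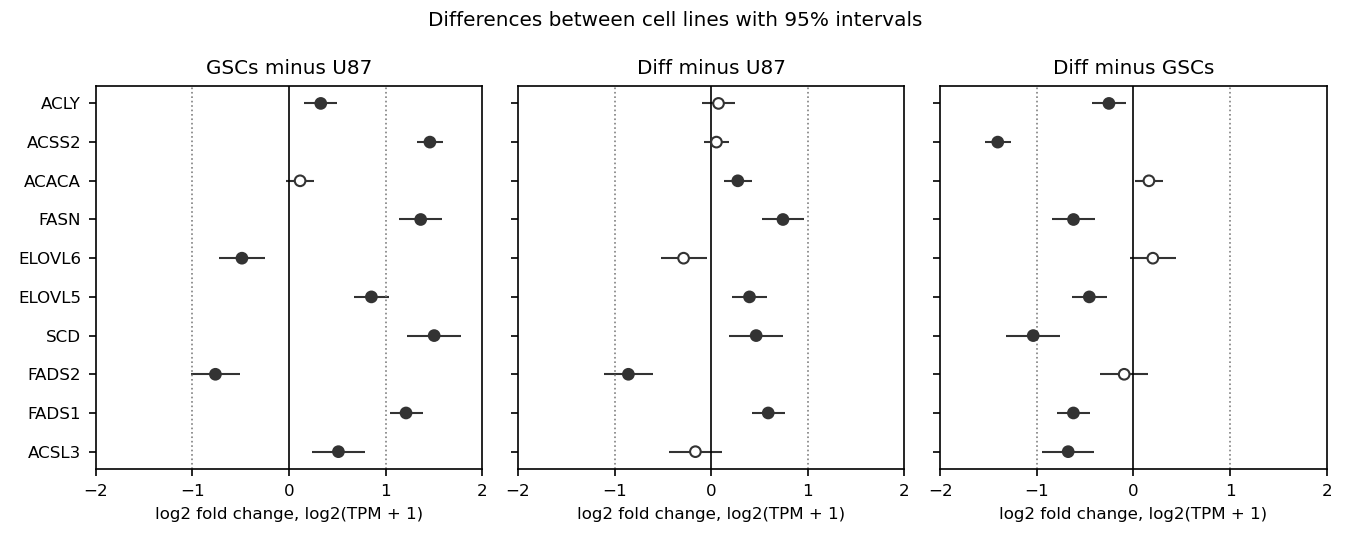
Log2 fold change of the 10 enzymes (horizontal axis, log2(TPM + 1) scale) in each of the 3 comparisons; dots are limma estimates, lines their 95% intervals, filled dots have an adjusted p under 0.05, and dotted lines mark a log2 fold change of 1 in either direction. In GSCs minus U87 the values ran from -0.76 (FADS2) to 1.50 (SCD), in Diff minus U87 from -0.86 to 0.74, and in Diff minus GSCs from -1.40 (ACSS2) to 0.20.

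Because the enzymes moved by unequal amounts, their proportions differed between the lines. SCD made up 65.1% ± 3.35 (SD, n = 3) of the summed TPM of the 10 in U87, 75.7% ± 1.66 in GSCs and 67.7% ± 1.96 in Diff cells. The other 9 enzymes still summed to 843 ± 11.1 TPM in U87, 1434 ± 70.5 TPM in GSCs and 1035 ± 31.3 TPM in Diff cells, so the order of the lines was the same without SCD. In TPM, FADS1 exceeded FADS2 by 9.41 to 9.85 times in U87, 38.9 to 49.5 times in GSCs and 28.0 to 31.7 times in Diff cells. ELOVL5 exceeded ELOVL6 by 3.16 to 3.51 times in U87, 8.07 to 9.16 times in GSCs and 4.93 to 5.71 times in Diff cells. FASN exceeded ACACA by 3.71 to 3.91 times in U87, 7.70 to 10.9 times in GSCs and 5.14 to 5.40 times in Diff cells. In these 3 ratios the lines did not overlap, and GSCs were highest and U87 lowest. ACLY exceeded ACSS2 by 10.9 to 12.9 times in U87, 4.88 to 5.70 times in GSCs and 10.8 to 12.7 times in Diff cells, so only GSCs stood apart in the ratio of the enzymes that supply acetyl-CoA. SCD exceeded FASN by 8.78 to 10.5 times in U87 and 8.53 to 12.3 times in GSCs, which overlapped, and by 7.38 to 8.31 times in Diff cells, the lowest. These ratios follow from the levels above and were not tested separately.

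Other enzymes of the same steps were counted by list, each to be read beside the shares of all tested genes that passed both limits (17.1%, 12.3% and 8.01% in the 3 comparisons). Of 5 tested genes of acetyl-CoA supply (7 listed), 0 passed both limits as higher and 1 as lower in GSCs against U87. The one that fell was SLC16A1, a monocarboxylate transporter, from 115, 112 and 109.7 TPM in U87 to 45.8, 41.9 and 48.2 TPM in GSCs (-1.29, limma, adjusted p = 4.35e-07), and it fell in Diff cells too (-1.18). SLC25A1, the mitochondrial citrate carrier that feeds ACLY, named outside the rule after its values were seen, was at 144, 140.2 and 137 TPM in U87, 200.5, 209 and 162 TPM in GSCs and 141, 158 and 159.8 TPM in Diff cells, and rose in GSCs by 0.43 (adjusted p = 0.00501). Of 7 tested partners of malonyl-CoA and of the synthase, 0 passed both limits in any comparison. Among them ACACB, the other acetyl-CoA carboxylase, was at 8.28, 8.09 and 7.65 TPM in U87, 7.83, 9.18 and 8.13 TPM in GSCs and 13.8, 12.4 and 13.0 TPM in Diff cells, and like ACACA was highest in Diff cells (0.64 against U87, limma, adjusted p = 0.000414).

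Of 6 other tested genes of desaturation, 0 passed both limits in any comparison, with 2 higher and 2 lower by adjusted p in GSCs against U87 (backgrounds 25.3% and 23.3%). SCD5, the only other stearoyl-CoA desaturase, was at 18.7, 22.0 and 20.2 TPM in U87, 32.4, 35.4 and 38.8 TPM in GSCs and 27.0, 27.6 and 27.5 TPM in Diff cells. It kept the order seen for SCD at a far lower level, and rose in GSCs by 0.78 (limma, adjusted p = 6.75e-05) and in Diff cells by 0.42 (adjusted p = 0.00357) against U87. Of 9 other tested enzymes of the elongation cycle, 2 passed both limits in GSCs against U87, both higher, and 0 in the other comparisons. They were ELOVL3 (1.13, from 8.73, 8.44 and 8.41 to 21.2, 18.6 and 20.1 TPM) and ELOVL4 (1.09, from 4.26, 5.07 and 4.24 to 9.45, 10.6 and 12.4 TPM), elongases of saturated and very long chains. HSD17B12, the ketoreductase of the cycle, named outside the rule after its values were seen, was at 15.7, 16.2 and 14.4 TPM in U87, 24.4, 22.1 and 29.7 TPM in GSCs and 15.3, 15.1 and 17.9 TPM in Diff cells. It rose in GSCs (0.67, limma, adjusted p = 0.00128). Of the other acyl-CoA synthetases 3 were tested and ACSL1, the form linked to triglyceride synthesis and oxidation, passed both limits, at 19.2, 20.1 and 20.0 TPM in U87, 49.6, 53.3 and 65.1 TPM in GSCs and 64.0, 59.7 and 58.0 TPM in Diff cells (1.45 and 1.57 against U87). Unlike ACSL3 it stayed high in Diff cells (0.12 against GSCs, adjusted p = 0.37). Of 5 tested genes of NADPH supply, 0 passed both limits in any comparison.

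The regulators of the pathway were read as transcripts only. Of 21 tested, 3 passed both limits as higher and 0 as lower in GSCs against U87, 3 as higher and 1 as lower in Diff cells against U87, and 1 in each direction in Diff cells against GSCs. Of all tested genes 9.52% passed as higher and 7.53% as lower, 5.92% and 6.36%, and 2.66% and 5.36% in these comparisons. INSIG1, itself a SREBP target whose protein holds SREBP back, was at 205, 242 and 185 TPM in U87, 957, 942 and 931 TPM in GSCs and 254, 252 and 276 TPM in Diff cells, and it rose in GSCs by 2.17 (limma, adjusted p = 2.73e-07) and fell in Diff cells against GSCs (-1.85, adjusted p = 2.55e-06). INSIG2 fell in Diff cells against U87 (-1.31). NR1H3, the liver X receptor alpha, was at 11.2, 12.4 and 11.1 TPM in U87, 37.4, 37.6 and 35.0 TPM in GSCs and 32.1, 35.1 and 35.3 TPM in Diff cells. It rose in both derived lines (1.58 and 1.49) and differed little between them (-0.10, 95% interval -0.26 to 0.058). The coactivators PPARGC1A and PPARGC1B, linked to mitochondrial and lipid gene control, were highest in Diff cells, PPARGC1A with 2.08, 2.31 and 1.70 TPM in U87, 6.07, 6.41 and 8.18 TPM in GSCs and 26.7, 22.9 and 24.7 TPM in Diff cells (1.38 and 3.09 against U87, and 1.72 between Diff cells and GSCs). PPARGC1B rose by 1.42 in Diff cells against U87.

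The genes of the SREBP proteins themselves, named outside the rule after their values were seen, did not pass the fold limit in any comparison. SREBF2, whose protein chiefly drives sterol genes, was at 91.3, 94.3 and 85.4 TPM in U87, 168, 177 and 149 TPM in GSCs and 96.5, 96.8 and 102 TPM in Diff cells, and rose in GSCs by 0.86 (limma, adjusted p = 1.31e-05). SREBF1, whose protein chiefly drives fatty acid genes, was at 97.0, 100.1 and 89.7 TPM in U87, 80.5, 89.9 and 66.8 TPM in GSCs and 114, 116 and 123 TPM in Diff cells. GSCs and U87 overlapped, and all Diff libraries were above both. Its difference of -0.28 in GSCs against U87 (adjusted p = 0.0466) kept its side of the limit in only 4 of 18 alternatives, and that of 0.30 in Diff cells against U87 (adjusted p = 0.0439) in 8 of 18. Diff cells exceeded GSCs by 0.58 (limma, adjusted p = 0.00247).

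Sterol synthesis, the other main SREBP-driven pathway, gave the nearest comparison. Of its 23 tested genes, 13 passed both limits as higher and 1 as lower in GSCs against U87 (backgrounds 9.52% and 7.53%), 0 and 1 in Diff cells against U87 (5.92% and 6.36%), and 0 and 15 in Diff cells against GSCs (2.66% and 5.36%). In Diff cells against U87 the sterol list had 7 genes higher and 7 lower by adjusted p (backgrounds 18.9% and 20.5%), while the fatty acid enzymes had 5 higher and 1 lower. Among the genes that rose were SC5D and TM7SF2, enzymes of late sterol synthesis (2.78 and 2.60 in GSCs against U87). The sterol gene that fell in GSCs was PMVK (-1.22). HMGCS1, the entry enzyme of the mevalonate pathway, was at 30.4, 33.5 and 25.5 TPM in U87, 100.1, 96.3 and 111 TPM in GSCs and 14.3, 12.0 and 14.1 TPM in Diff cells, so that it fell below U87 in Diff cells (-1.09, limma, adjusted p = 7.34e-05). FASN, FADS1 and ELOVL5 by contrast remained above U87 in every Diff library. A difference between the 2 lists was not tested.

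Genes that bind, store and burn fatty acids gave a mixed picture beside the synthesis enzymes. Among 11 tested genes of uptake and binding, 4 passed both limits as higher and 1 as lower in GSCs against U87 (backgrounds 9.52% and 7.53%), and the same numbers in Diff cells against U87 (5.92% and 6.36%). FABP3, a cytosolic fatty acid binding protein, was at 24.8, 27.9 and 19.3 TPM in U87, 204, 202 and 207 TPM in GSCs and 51.2, 58.8 and 56.2 TPM in Diff cells (3.05 in GSCs and 1.19 in Diff cells against U87), in the order seen for FASN and FADS1. FABP5 (2.22 and 1.81) and FABP7, the brain form that the study stained as a stemness marker (1.77 and 1.16), rose in both lines at low levels. FABP6 passed in Diff cells (1.53), at 0.12 to 0.42 TPM in U87, 0.24 to 0.31 TPM in GSCs and 2.26 to 2.91 TPM in Diff cells. Its mean of 1.06 TPM passed the filter only through the Diff libraries, so this call is not independent of the filter. LRP1, a lipoprotein receptor, passed in GSCs (1.02, or 0.97 under quantile normalization, 0.97 without U87 replicate 3 and 0.94 without GSC replicate 2). It fell in Diff cells against GSCs (-1.34). VLDLR, a receptor for triglyceride-rich lipoproteins, fell from 20.8, 18.1 and 21.0 TPM in U87 to 1.36, 1.80 and 1.57 TPM in GSCs and 1.39, 1.41 and 2.09 TPM in Diff cells (-3.02 and -3.00; limma, adjusted p = 5.13e-07 and 8.62e-07).

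Of 17 tested genes of glycerolipid synthesis and lipid droplets, 2 passed both limits as higher and 3 as lower in GSCs against U87 (backgrounds 9.52% and 7.53%), and 0 and 2 in Diff cells against U87 (5.92% and 6.36%). The phosphatidate phosphatases LPIN3 (1.53) and LPIN1 (1.13) rose in GSCs, and the acyltransferases GPAT3 (-1.26), AGPAT4 (-1.09) and AGPAT3 (-1.01, or -0.97 without U87 replicate 1, -0.96 without U87 replicate 2 and -0.999 without GSC replicate 3) fell. GPAT3 fell in Diff cells as well (-1.39). GPAM, the mitochondrial enzyme that starts glycerolipid synthesis, was at 11.3, 10.1 and 10.2 TPM in U87, 6.19, 5.67 and 7.35 TPM in GSCs and 18.9, 18.0 and 19.3 TPM in Diff cells, with no overlap between lines (1.42 in Diff cells against GSCs, limma, adjusted p = 1.66e-05). HILPDA, an inhibitor of lipolysis on lipid droplets, was at 36.7, 37.1 and 41.2 TPM in U87, 53.0, 40.5 and 20.6 TPM in GSCs and 4.54, 5.28 and 5.79 TPM in Diff cells, and fell in Diff cells against U87 (-2.67). Its GSC libraries spread widely, and the difference from U87 (-0.11, adjusted p = 0.779) was 0.27 without GSC replicate 3. Of 7 tested genes of lipolysis, MGLL (1.30) and G0S2 (1.37), the latter an inhibitor of lipolysis, passed both limits in GSCs against U87, both higher. G0S2 fell again in Diff cells (-1.05 against GSCs). This was -0.95 under quantile normalization, -0.998 under median-ratio scaling, -0.96 without GSC replicate 3 and -0.93 without Diff replicate 2. By adjusted p alone 3 of the 7 were higher and 3 lower in GSCs against U87 (backgrounds 25.3% and 23.3%). Of 22 tested genes of beta-oxidation only CPT1A, the gate of mitochondrial import that malonyl-CoA inhibits, passed both limits in GSCs against U87. It was at 43.6, 45.0 and 44.7 TPM in U87, 86.8, 93.5 and 96.1 TPM in GSCs and 49.0, 45.9 and 47.1 TPM in Diff cells (1.03, limma, adjusted p = 9.78e-07). By adjusted p alone 4 of the 22 were higher and 9 lower, beside the same backgrounds of 25.3% and 23.3%. Like ACSS2, CPT1A was high in GSCs and near the U87 level in Diff cells (0.089, 95% interval -0.034 to 0.21).

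The genes whose pattern over the 9 libraries came nearest to each enzyme were found among 12181 protein-coding genes by root mean square distance of centred log2 values. FASN was nearest to TMEM120A, MAP2K3 and MGLL (distances 0.069, 0.0919 and 0.0925), SCD to TAS2R4, ADAM23 and PLPP3 (0.119, 0.12 and 0.123), ACSS2 to SHC3, DNER and DOC2A (0.0648, 0.0839 and 0.0861) and FADS1 to C1orf198, ZNF766 and ZFPM2 (0.0692, 0.0713 and 0.0841). FADS2 was nearest to PEX11A, HM13 and ANKRD16 (0.0689, 0.0697 and 0.0722), ELOVL5 to ARL1, ANKRD10 and SSPN (0.0399, 0.0455 and 0.0494), and ELOVL6 to USP15, ZCCHC8 and PCYT1A (0.0522, 0.0583 and 0.0595). ACLY was nearest to MAGEF1, KIF13A and IGF2BP2 (0.0555, 0.0622 and 0.0655), ACACA to SEC23IP, ABL2 and NUP214 (0.0107, 0.0342 and 0.0446) and ACSL3 to G3BP2, HIPK3 and SCML1 (0.0402, 0.05 and 0.0586). With 9 libraries in 3 lines many genes share any such pattern. By the same distance FADS1 was the 44th nearest gene to FASN and the 48th to SCD, and SCD was the 108th nearest to ACSS2, whereas FADS2 held rank 10461 of 12181 from FADS1.

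Genes lying next to the enzymes on the chromosome were read beside them, with no test. Among the 20 tested genes nearest to ACSS2 on chromosome 20, the median log2 fold change in GSCs against U87 was -0.23 and all 20 lay below ACSS2, and among those around SCD on chromosome 10 the median was -0.12 and again all 20 lay below SCD. Around FASN on chromosome 17 the median was -0.15, with 19 of 20 below FASN. The 20 genes around FADS1 had a median of 0.10, with 18 below FADS1, and those around FADS2 a median of 0.17, with 3 below FADS2. In Diff cells against GSCs, 1 of 20 neighbours lay below ACSS2 and 1 of 20 below SCD.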

How the data were processed

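The authors deposited 1 table of log2(TPM + 1) per gene and library, named by gene symbol, with 60606 genes and 9 libraries. Per the labels, RNA was depleted of ribosomal RNA and made into directional libraries, whereas the methods of the study describe enrichment on oligo(dT). The submitters' processing notes list FastQC 0.11.9, Trimmomatic 0.39, HISAT2 2.2.1, featureCounts 2.0.5, R 4.2.0 and GRCh38. The annotation and the strand setting are not given in the sources used here. Back-transformed values of every library summed to 1000000, no 2 libraries were identical, and every column was used. No depth could be recovered, so no counting interval is given.

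Genes with a mean over 1 TPM (22909) were compared on the deposited log2 values (pseudocount 1). One linear model held all 3 cell lines as labelled, fitted in limma (version 3.58.1, R 4.3.3) with moderated variances that follow the mean level, and p-values were adjusted by Benjamini-Hochberg within each comparison. Tested on simulated data where 200 of 22909 genes differed by 1.5 (log2), this recovered 165 with 6 false calls for GSCs against U87, and 160 with 1 false call for Diff cells against GSCs. The simulated residuals were normal and independent between genes, and far fewer genes differed than were called in these data. These counts therefore check the procedure and do not give the error of the calls reported here. Summaries used Python (3.11.15) with pandas (version 2.3.3) and numpy (version 2.4.6), and plots matplotlib (version 3.10.9). Coordinates are those of GENCODE 29 (GRCh38), and upstream sequences and gene types those of RefSeq (GRCh38.p14).

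Named were all 10 enzymes, up to 4 genes per list and comparison that passed both limits, by absolute log2 fold change, the only other enzyme of a step, and genes that the study measured. A gene that this rule would name is not reported here. Other genes named as exceptions, and AGPAT3 and PMVK, which complete counts, were chosen after their values were seen. The enzymes and lists were chosen with earlier results of these data known. Alternatives covered the pseudocount, the filter, scaling, the libraries in the fit, the trend, a replicate block and the omission of each library.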

Additional observations from a re-analysis of the deposited data

How the results depend on the processing

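Of 30 log2 fold changes of the 10 enzymes (3 comparisons), 24 kept their direction and their side of the adjusted p limit under all alternatives run, of which there were up to 18. The other 6 were those of ACLY, ACACA, ELOVL6 (both comparisons of Diff cells), SCD and FADS2 given with the results, where FADS2 in Diff cells against GSCs turned from -0.095 to 0.0373 under quantile normalization. Of 57 values of named genes that passed both limits, 53 did so under every alternative. The number of enzymes passing both limits was 4, 0 and 2 in the 3 comparisons (GSCs against U87, Diff cells against U87, Diff cells against GSCs) and 9, 6 and 7 by adjusted p alone. It was 1 for Diff cells against U87 at a pseudocount of 0.1 (FADS2), and 1 for Diff cells against GSCs after rescaling without RN7SL1 and mitochondrial genes and under median-ratio scaling, and 1 to 2 on leaving out single libraries. Over all genes, 3908, 2812 and 1836 passed both limits, 2254, 1583 and 1038 with the filter at a mean TPM over 5, where fewer genes were tested, and 11129, 9024 and 7982 by adjusted p alone. In Diff cells against GSCs 33.2% of the genes passing both limits were higher, and 42.4% under quantile normalization. Among other named genes, values near 0 changed sign: ACACB in GSCs against U87 (-0.0152 under quantile normalization, -0.0029 to 0.0995 without single libraries), FABP6 in GSCs against U87 (-0.1942, and -0.0747 to 0.0968), HILPDA in GSCs against U87 (-0.3917 to 0.2692), HSD17B12 in Diff cells against U87 (-0.0223 to 0.0956) and VLDLR in Diff cells against GSCs (-0.1021 to 0.0838). The cause of these changes was not tested. Same-numbered libraries of different lines did not deviate together (r from -0.042 to 0.049 over 9 pairs), so the numbers were not used as pairs. With a replicate block 4, 0 and 2 enzymes and 3917, 2810 and 1831 genes passed both limits. TPM keeps no depth, so the precision of low genes such as FADS2 rests on 3 libraries per line.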

Other observations

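Several genes of lipid storage and uptake were too low to be tested. PLIN2, which coats lipid droplets, was at 0.602, 0.259 and 0.253 TPM in U87, 1.45, 1.04 and 1.10 TPM in GSCs and 0.997, 0.872 and 0.963 TPM in Diff cells. CD36, a fatty acid transporter, was at 0 to 0.0233 TPM in U87, 0.467 to 0.903 TPM in GSCs and 0.128 to 0.201 TPM in Diff cells. Both were higher in every GSC library and in every Diff library than in any U87 library, at levels where TPM gives no measure of counting error. Of the tested genes, 29.3% were so separated in GSCs and 26.2% in Diff cells. HACD4, SLC27A2, PLIN5 and CIDEB were listed at 0 in all 9 libraries. For some listed genes most exon bases also lie in another gene of GENCODE 29 (CIDEB 100%, CYP51A1 83.2%, CPT1B 66.4%, LPCAT3 65.6%, ACAT2 52.3% and BSCL2 51.9%), so their values are uncertain where counting could not assign shared reads.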
